A study of Mus musculus with 6 samples.

Results

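Contractile genes of smooth and striated muscle were examined in primary mouse calvarial osteoblasts, the bone-forming cells released from the skull bones of newborn mice. The 39 genes were taken from a fixed list of names, namely 14 genes of smooth muscle and of contractile stress fibres, 21 genes of skeletal and cardiac muscle, and 4 transcription factors of muscle precursor cells. They were found on the array by RefSeq accession, with 56 of the 39429 probes. All genes tested numbered 23082, here and in every share of all genes, and array entries without a RefSeq gene name were counted among them. Of the 39 genes, 31 could be tested because the scanner called them well above background on 2 or more of the 6 arrays. No measured value was used to choose the 39 genes, but earlier results of these data were known.

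All osteoblasts came from CD1 mice aged 2 to 5 days and were grown to confluence in serum-containing medium. The undifferentiated group was taken at confluence, the differentiated group after 30 days in differentiation medium, and the cabozantinib group after 30 days in the same medium with cabozantinib (XL184), an inhibitor of the receptor tyrosine kinases MET and VEGFR2. Each group had 2 arrays of 1 color, and the labels do not say that the 2 came from separate cultures, so that the p values measure the spread between these samples, which may be technical. By the file headers, the 4 arrays without cabozantinib shared 1 scan time and the 2 cabozantinib arrays shared another. Scan batch and drug therefore cannot be told apart.

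Signals are given as log2 of the processed signal relative to the 75th percentile of each array, so that 0 is a gene at that percentile and 1 is 2 times as bright. Levels are compared between arrays for the same probe and not between genes. The 75th percentile was 625 and 1773 units in undifferentiated, 1095 and 649 in differentiated, and 1277 and 961 in cabozantinib osteoblasts. The share of spots well above background was 61.1% and 72.9% in undifferentiated, 64.8% and 67.4% in differentiated, and 58.9% and 58.8% in cabozantinib osteoblasts. In RNA from whole cultures, fewer cells of a type and less RNA per cell cannot be told apart.

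Muscle contracts when myosin heads pull on actin filaments. In smooth muscle, and in the stress fibres of many fibroblast-like cells, contraction is switched on by phosphorylation of the myosin light chain, and calponins, caldesmon and tropomyosins lie along the filaments. In striated muscle the filaments are ordered into sarcomeres and calcium acts through the troponins. Smooth muscle actin and its companions are commonly expressed by mesenchymal cells in culture, whereas troponins and sarcomeric myosins are classed as muscle genes. Many contractile genes of both kinds are targets of serum response factor, which binds the CArG box, and the myogenic factors Myod1 and Myog bind E-boxes.

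Most smooth muscle and stress fibre genes tested were brighter than the 75th percentile on every array, while Cald1, Lmod1, Mylk and Synpo2 were dimmer on every array. Of the 14 genes, 13 had a signal well above background on each of the 6 arrays, and the exception was Myh11, the heavy chain of smooth muscle myosin, which was not well above background on any array. Acta2, smooth muscle α-actin, had log2 signals of 8.01 and 6.91 in undifferentiated, 6.74 and 7.48 in differentiated, and 7.55 and 7.76 in cabozantinib osteoblasts. The actin-binding protein transgelin (Tagln) had 7.19 and 6.26, then 6.08 and 6.97, then 6.77 and 7.12 in the same order. The regulatory light chain Myl9 had 6.88 and 5.49, then 5.30 and 6.76, then 6.56 and 7.04. For these 3 genes the undifferentiated arrays overlapped both other groups, and none passed the test in any comparison.

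**Figure D1:**
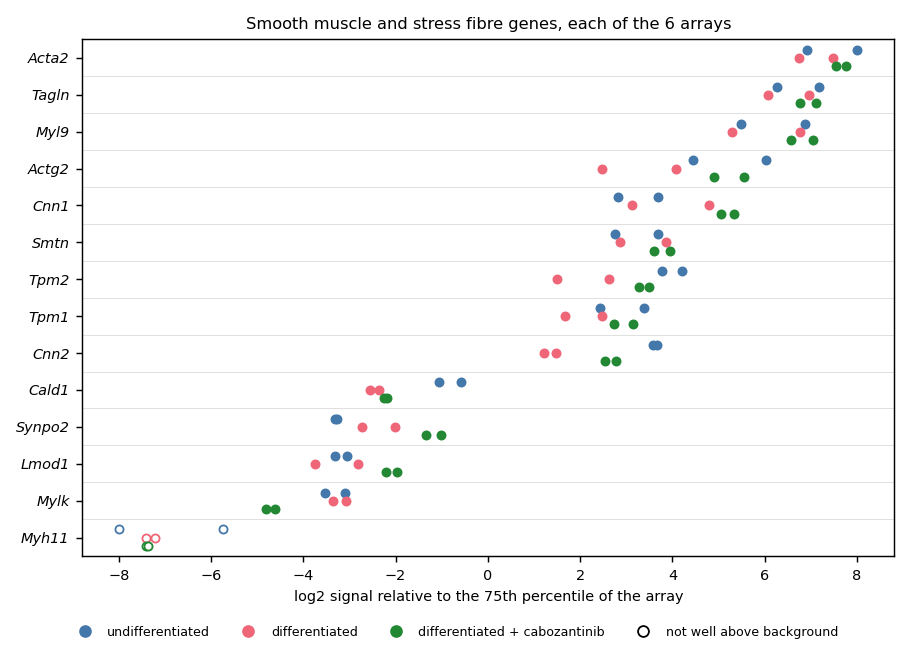
Log2 signal relative to the 75th percentile of the array (horizontal axis) for the 14 smooth muscle and stress fibre genes, with a point for each of the 6 arrays colored by group and open points where the probe was not well above background. Cnn2, Tpm2 and Actg2 lie lower on both differentiated arrays than on the other 4 arrays, and Myh11 has open points only.

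The first comparison asked which contractile genes differed between differentiated and undifferentiated osteoblasts. By limma with Benjamini-Hochberg adjustment, 9.71% of all genes tested were called at an adjusted p under 0.05, 5.26% higher and 4.45% lower, and 5 of the 31 muscle genes were. The perinatal and fast myosin genes Myh8 and Myh1 and the fast troponin I gene Tnni2 rose, and the skeletal α-actin gene Acta1 and the calponin gene Cnn2 fell. With quantile normalization 6 were called, 2 higher (Myh1 and Myh8) and 4 lower (Acta1, Cnn2, Tpm2 and Cald1). With a normexp background correction on the median signals, chosen after seeing the data, 2 were called, and 673 of all genes in place of 2242. By the t-test of the methods, paired or unpaired, 0 were called, as of all genes. The count also moved when an array was left out. The median log2 fold change was -0.20 for the 13 smooth muscle genes tested, 0.59 for the 15 striated genes tested, 0.19 for the 3 regulators tested and 0.11 for all genes. The median of the smooth muscle genes turned to 0.43 without undifferentiated array 1 and to 0.29 without differentiated array 1. That of the striated genes ran from 0.14 without differentiated array 2 to 1.39 without undifferentiated array 1. The median of all genes moved too, to 0.49 without undifferentiated array 1, 0.32 without differentiated array 1 and -0.11 without differentiated array 2. By the criterion of the study, a change over 2-fold with an unadjusted p under 0.05, taken here from limma, 5 of the 31 genes passed as higher and 5 as lower, against 20.2% of all genes, 10.5% higher and 9.79% lower. On both differentiated arrays 9 of the 31 genes were above both undifferentiated arrays and 5 below both, against 25.9% and 19.4% of all genes.

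Acta1 encodes the actin of adult skeletal muscle. It had log2 signals of 2.09 and 2.04 in undifferentiated, -0.64 and -0.38 in differentiated, and 1.56 and 1.15 in cabozantinib osteoblasts. The 3 groups did not overlap, with the differentiated arrays lowest. Acta1 fell 5.97-fold with differentiation (log2 fold change -2.58 ± 0.49 SE, limma adjusted p = 0.00953), and was 3.64-fold higher with cabozantinib than in control differentiated osteoblasts, which did not pass the test (log2 fold change 1.87 ± 0.49, adjusted p = 0.0645). The call with differentiation was lost without differentiated array 1 (adjusted p = 0.113).

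Cnn2 encodes calponin 2, which binds actin in smooth muscle and in non-muscle cells. It had 3.66 and 3.58 in undifferentiated, 1.21 and 1.48 in differentiated, and 2.77 and 2.55 in cabozantinib osteoblasts. These groups did not overlap either, and they took the same order as for Acta1. Cnn2 fell 4.83-fold with differentiation (log2 fold change -2.27 ± 0.49 SE, limma adjusted p = 0.0164) and was 2.48-fold higher with cabozantinib, with an adjusted p of 0.142. The call was lost without either differentiated array (adjusted p = 0.202 and 0.0840), and with a normexp background correction on the median signals, chosen after seeing the data (0.0611). A dimmer probe for Cnn2 gave a log2 fold change of -0.43 with differentiation (adjusted p = 0.799) and -0.26 with cabozantinib (adjusted p = 0.887), so that the probes of this gene disagree.

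The promoters of Acta1 and Cnn2 are shown because the CArG box lies in both and because both genes fell with differentiation. In the RefSeq promoter windows of build GRCm38.p6, which span the start of each transcript, the CArG box was found in 1.63% of all 32851 windows. Windows were found for 33 of the 39 genes. The box lay in those of 2 of the 11 smooth muscle genes with a window, Cnn2 and Myl9, and of 2 of the 19 striated genes, Acta1 and Actc1. Below, 100 bases of each are printed on the strand of the gene with the CArG box in capitals. They lie at chr8:123894776-123894875 (minus strand) for Acta1, chr10:79988500-79988599 (plus strand) for Cnn2, chr2:114052876-114052975 (minus strand) for Actc1 and chr2:156775264-156775363 (plus strand) for Myl9. The first 3 end at the base before the start, and that of Myl9 ends 101 bases before it.
Acta1: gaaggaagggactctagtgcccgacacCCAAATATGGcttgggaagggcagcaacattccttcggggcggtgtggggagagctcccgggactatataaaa
Cnn2: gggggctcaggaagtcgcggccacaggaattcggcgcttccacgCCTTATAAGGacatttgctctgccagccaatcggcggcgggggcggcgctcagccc
Actc1: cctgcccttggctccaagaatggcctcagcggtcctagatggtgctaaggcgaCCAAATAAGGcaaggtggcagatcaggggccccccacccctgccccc
Myl9: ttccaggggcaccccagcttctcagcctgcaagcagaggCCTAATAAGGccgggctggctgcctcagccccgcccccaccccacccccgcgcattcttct
The box began 73 bases before the start of Acta1, 56 before that of Cnn2, 47 before that of Actc1 and 161 before that of Myl9. Actc1, cardiac α-actin, had mean log2 signals of -3.29, -4.18 and -3.77 in the undifferentiated, differentiated and cabozantinib groups. These means took the same order as those of Acta1 and Cnn2, with smaller steps and without a call. Myl9 overlapped between groups as given above. A match of letters is a description of the window and not evidence of binding.

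Other stress fibre genes had lower values on the differentiated arrays without passing the test at their brightest probe. Tpm2, β-tropomyosin, had log2 signals of 4.20 and 3.78 in undifferentiated, 1.51 and 2.63 in differentiated, and 3.28 and 3.49 in cabozantinib osteoblasts. Its log2 fold change was -1.92 ± 0.54 SE with differentiation (limma adjusted p = 0.0537) and 1.31 ± 0.54 with cabozantinib (adjusted p = 0.178). A dimmer Tpm2 probe passed the first test, with a log2 fold change of -4.42 (adjusted p = 0.00529). Actg2, the γ-actin of enteric smooth muscle, had 6.02 and 4.45, then 2.47 and 4.08, then 4.91 and 5.55. Both differentiated arrays lay below the other 4, and the log2 fold changes of -1.97 ± 0.71 with differentiation (adjusted p = 0.131) and 1.96 ± 0.71 with cabozantinib (adjusted p = 0.135) did not pass.

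Tpm1, α-tropomyosin, was measured by 5 probes. At its brightest probe the log2 fold change was -0.83 with differentiation (limma adjusted p = 0.498) and 0.86 with cabozantinib (adjusted p = 0.432). A nearly as bright probe had -1.45 (adjusted p = 0.103) and 1.20 (adjusted p = 0.174). A dimmer one had the opposite signs, with 0.08 (adjusted p = 0.978) and -0.48 (adjusted p = 0.703). The rest took the signs of the brightest, and no Tpm1 probe was called in either comparison. Smtn, encoding smoothelin, had a brightest probe with a log2 fold change of 0.13 with differentiation (adjusted p = 0.967), which turned to -0.0357 with quantile normalization, and a dimmer one, listed under another transcript, with -2.13 (adjusted p = 0.0268). Cald1, encoding caldesmon, which holds back the actin-activated ATPase of myosin, was -0.58 and -1.07 in undifferentiated, -2.36 and -2.55 in differentiated, and -2.18 and -2.26 in cabozantinib osteoblasts. The undifferentiated arrays were the highest for Cald1, and its log2 fold change of -1.63 ± 0.48 SE with differentiation missed the threshold (adjusted p = 0.0664).

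**Figure D2:**
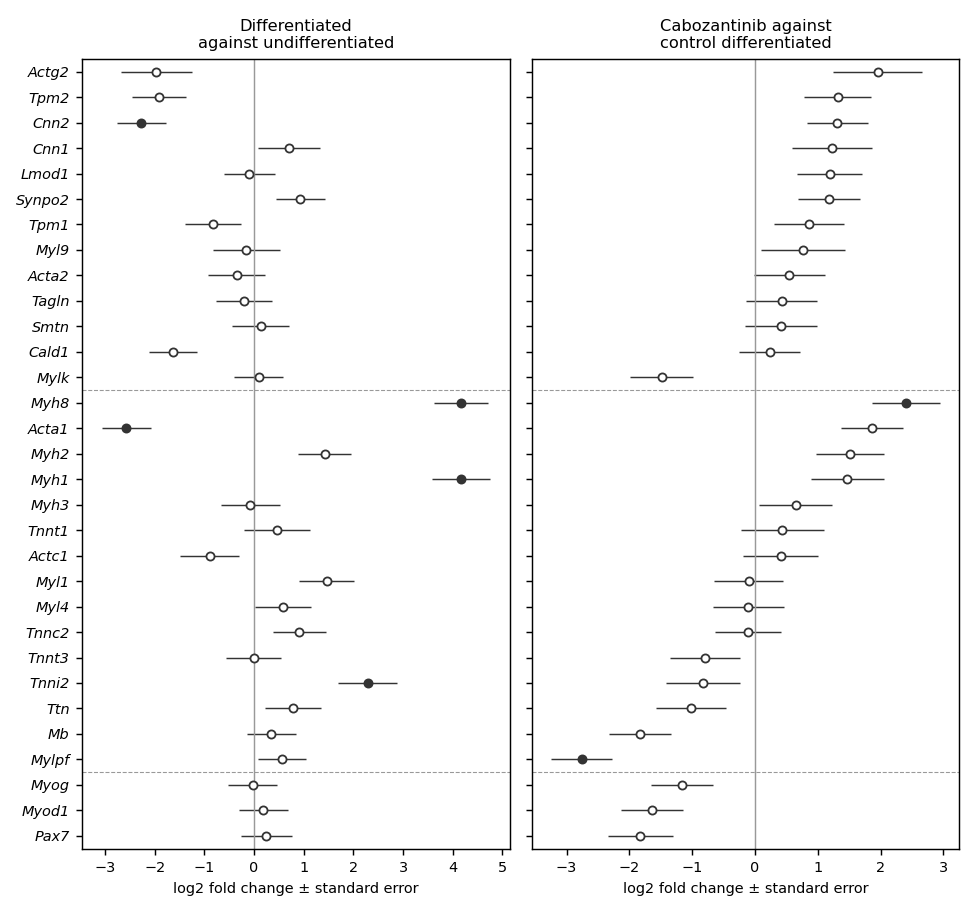
Log2 fold change with its standard error from the limma fit for the 31 genes tested, for differentiated against undifferentiated osteoblasts (left) and cabozantinib against control differentiated osteoblasts (right), with filled points at an adjusted p under 0.05 and dashed lines between smooth muscle genes, striated genes and regulators. The 2 panels share the differentiated arrays. On the right 12 of the 13 smooth muscle genes lie above 0 and all 3 regulators below 0.

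The second comparison asked which contractile genes differed when cabozantinib was present during differentiation. Of all genes tested, 2.67% were called, 2.55% lower and 0.121% higher. Of the 31 muscle genes, Myh8 rose and Mylpf fell. Both calls were marginal (limma adjusted p = 0.0499 and 0.0475), and neither was made when either array of either group was left out, with quantile normalization, or in the authors' normalized values. Other settings called more of the 31 genes, 8 with no replicate block, 12 with only the 4 arrays compared and 17 with the undifferentiated replicate numbers exchanged, a setting chosen after seeing the data. These settings also called more of all genes, 2948, 5546 and 7062 in the same order, in place of 616.

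By the criterion of 2-fold and an unadjusted p under 0.05, 23.4% of all genes passed, 2.71% higher and 20.7% lower. Of the 31 muscle genes, 9 passed as higher and 6 as lower. With quantile normalization 10 passed as higher and 3 as lower, where 3535 of all genes passed in place of 5399. By the paired and unpaired t-tests of the methods 4 and 8 of the 31 passed, only 0 and 2 of them as higher. Of all genes, 2328 and 3785 passed by these t-tests. The 5 smooth muscle genes that passed as higher were Actg2, Tpm2, Cnn2, Lmod1 and Synpo2, the 4 striated genes were Myh8, Acta1, Myh2 and Myh1, and the 6 lower ones were Mylk, Mylpf, Mb, Pax7, Myod1 and Myog. The other 2 probes of Synpo2 had the opposite sign. A probe not well above background on either cabozantinib array was at least 3.11-fold lower there and passed the criterion (limma adjusted p = 0.0930), and the log2 fold change of the other was -1.11 (adjusted p = 0.302). Dimmer probes of Smtn (1.65, adjusted p = 0.0917) and Tpm1 (1.20, adjusted p = 0.174) passed the criterion as higher, while the brightest probe of Smtn had 0.42 (adjusted p = 0.802). With any of the 4 arrays of these 2 groups left out, fewer of the 31 genes passed. The tally of higher genes fell in each of these settings, least without differentiated array 2. Without differentiated array 1 the median log2 fold change was 0.25 for the smooth muscle genes and -0.56 for all genes.

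With cabozantinib the log2 fold changes had a median of 0.86 over the 13 smooth muscle genes, of -1.64 over the 3 regulators and of -0.29 over all genes. The 15 striated genes had a median of -0.10, which turned to 0.30 with quantile normalization and to 0.64 without differentiated array 2. Without differentiated array 1 the median of the smooth muscle genes was 0.25, and without differentiated array 2 it was 1.44. The median of all genes was -0.56 and -0.19 in these settings. On both cabozantinib arrays 9 of the 13 smooth muscle genes and 4 of the 15 striated genes were above both differentiated arrays, and 13.4% of all genes were. Below both were 1 of the 13 smooth muscle genes, 5 of the 15 striated genes and all 3 regulators, against 44.1% of all genes. The differentiated arrays enter both comparisons, so that a low value on them lowers one fold change and raises the other.

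Cnn1, calponin 1, is classed as a marker of contractile smooth muscle. It had log2 signals of 3.69 and 2.83 in undifferentiated, 3.13 and 4.80 in differentiated, and 5.05 and 5.33 in cabozantinib osteoblasts. The cabozantinib arrays were the highest, while the differentiated and undifferentiated arrays overlapped. Neither the log2 fold change of 1.23 ± 0.63 SE against differentiated osteoblasts (limma adjusted p = 0.288) nor that of 1.93 ± 0.63 against undifferentiated osteoblasts (adjusted p = 0.0694) passed.

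Lmod1, encoding leiomodin 1, which starts actin filaments in smooth muscle, had -3.05 and -3.32, then -3.74 and -2.83, then -2.20 and -1.98. It was highest on both cabozantinib arrays, with a log2 fold change of 1.19 ± 0.52 SE against differentiated osteoblasts (limma adjusted p = 0.202). Mylk, the kinase that phosphorylates the regulatory light chain, went the other way, with -3.10 and -3.54, then -3.37 and -3.08, then -4.81 and -4.61. Its log2 fold change with cabozantinib was -1.49 ± 0.50 (adjusted p = 0.111).

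Synpo2, encoding synaptopodin 2 (myopodin), was the only smooth muscle gene called between cabozantinib and undifferentiated osteoblasts. Its brightest probe had -3.32 and -3.27, then -2.72 and -2.01, then -1.35 and -1.02, and rose 4.32-fold (log2 fold change 2.11 ± 0.49 SE, limma adjusted p = 0.0245). The other 2 probes had the opposite sign, at least 2.70-fold lower for the one not well above background on either cabozantinib array (adjusted p = 0.0834) and with a log2 fold change of -1.02 for the other (adjusted p = 0.265), so that no direction can be given for the gene as a whole.

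The sarcomeric myosin heavy chains Myh1 and Myh8 had the largest rises with differentiation among the 31 genes. Myh8, the perinatal heavy chain of skeletal muscle, had log2 signals of -6.05 and -5.65 in undifferentiated osteoblasts, where 1 array was well above background, -2.44 and -0.93 in differentiated and 0.69 and 0.74 in cabozantinib osteoblasts. The groups did not overlap, with the cabozantinib arrays highest. Myh8 rose 17.9-fold with differentiation (log2 fold change 4.16 ± 0.54 SE, limma adjusted p = 0.00169), and cabozantinib osteoblasts were 5.31-fold above differentiated ones (log2 fold change 2.41 ± 0.54, adjusted p = 0.0499) and 95.2-fold above undifferentiated ones (log2 fold change 6.57 ± 0.54, adjusted p = 0.000309). Without undifferentiated array 2 the call with differentiation was lost (adjusted p = 0.0519), and with normexp it was lost with a log2 fold change of 1.68 (adjusted p = 0.366). The log2 fold change between cabozantinib and undifferentiated osteoblasts was 3.82 with normexp (adjusted p = 0.0182). A second Myh8 probe of the same transcript was not well above background on any array.

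Myh1, the heavy chain of fast IIx fibres, had -3.57 and -4.18 in undifferentiated, -0.43 and 1.02 in differentiated, and 1.57 and 1.96 in cabozantinib osteoblasts. These groups did not overlap and took the same order. Myh1 rose 18.1-fold with differentiation (log2 fold change 4.17 ± 0.58 SE, limma adjusted p = 0.00234), and cabozantinib osteoblasts had a log2 fold change of 5.64 ± 0.58 over undifferentiated ones (adjusted p = 0.000826). Both calls were made under all 19 alternative settings of limma, and not by the t-test of the methods, which called no muscle gene. The log2 fold change of 1.47 ± 0.58 between cabozantinib and differentiated osteoblasts did not pass (adjusted p = 0.165).

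Myh2, the heavy chain of fast IIa fibres, had -4.51 and -4.84, with 1 of these well above background, then -3.85 and -2.66, then -2.06 and -1.43. It rose 7.60-fold between undifferentiated and cabozantinib osteoblasts (log2 fold change 2.93 ± 0.54 SE, limma adjusted p = 0.0105), a call lost without cabozantinib array 2 (adjusted p = 0.0820) and with normexp (log2 fold change 1.36, adjusted p = 0.559), and neither the step of 1.42 ± 0.54 with differentiation (adjusted p = 0.154) nor that of 1.51 ± 0.54 with cabozantinib (adjusted p = 0.130) passed alone. Myh3, the embryonic heavy chain, had -3.42 and -4.21, then -4.50 and -3.28, then -3.62 and -2.87, and the groups overlapped.

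Heavy chains outside the list of 39 genes were read in the same way. Myh4, of fast IIb fibres, could not be told from background on either undifferentiated array, and had -4.84 and -4.36 in differentiated and -4.73 and -4.30 in cabozantinib osteoblasts. It rose at least 2.77-fold with differentiation (limma adjusted p = 0.0115) and was at least 2.95-fold above undifferentiated osteoblasts with cabozantinib (adjusted p = 0.0124), where the bound sets the mean of the bright group against the lowest signal that the scanner called above background. The first call was lost without differentiated array 2 (adjusted p = 0.117) and the second without cabozantinib array 2 (adjusted p = 0.154). With normexp both were lost, with log2 fold changes of 0.29 and 0.09, under those bounds (adjusted p = 0.99998 and 0.960). At their brightest probes the cardiac heavy chains Myh6 and Myh7 were well above background on all 4 arrays without cabozantinib and on neither cabozantinib array. Neither was called against differentiated osteoblasts (at least 2.53-fold and 2.17-fold lower, limma adjusted p = 0.158 and 0.179). Dim genes as a whole were lower there, with a median log2 fold change of -1.06 at mean signals between -5 and -4, where both lie. A dimmer Myh6 probe was well above background on 1 undifferentiated and 1 differentiated array only. The non-muscle heavy chain Myh9 had 8.06 and 6.83, then 6.93 and 7.85, then 6.89 and 7.38, and overlapped between all groups.

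**Figure D3:**
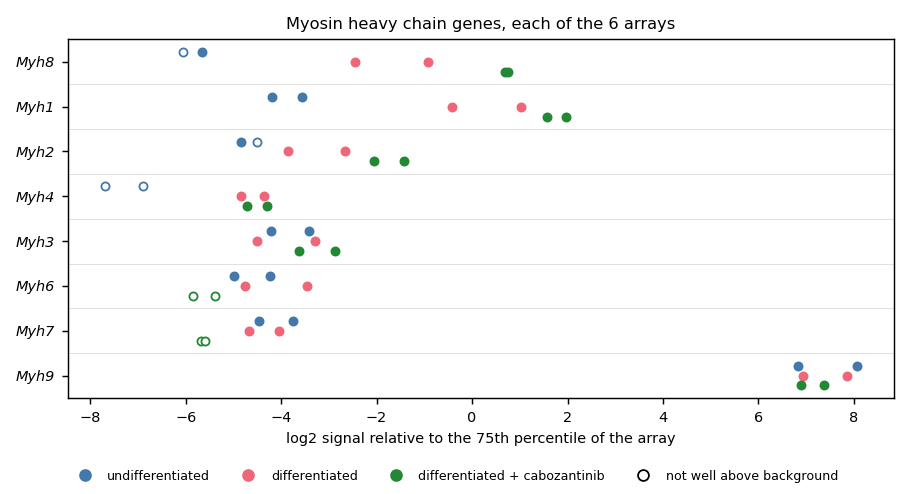
Log2 signal relative to the 75th percentile of the array (horizontal axis) for 7 muscle heavy chain genes and the non-muscle gene Myh9, with a point for each of the 6 arrays and open points where the probe was not well above background. Myh8, Myh1 and Myh2 step up from undifferentiated to differentiated to cabozantinib osteoblasts without overlap between groups.

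The skeletal heavy chain genes stand next to each other on mouse chromosome 11, in the order Myh3, Myh2, Myh1, Myh4, Myh8 and Myh13 in the RefSeq annotation. The genes are near-identical over long stretches, and binding of a transcript to the probe of another was not tested. The 100 bases before the starts of Myh8, at chr11:67277024-67277123 (plus strand), and Myh1, at chr11:67200002-67200101 (plus strand), are shown because these genes of one cluster, with Myh4 between them, had the largest rises among the 31 genes, with the letters TATAAA in capitals on either strand (TTTATA on the opposite strand).
Myh8: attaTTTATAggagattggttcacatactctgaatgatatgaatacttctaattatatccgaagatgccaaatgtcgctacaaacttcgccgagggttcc
Myh1: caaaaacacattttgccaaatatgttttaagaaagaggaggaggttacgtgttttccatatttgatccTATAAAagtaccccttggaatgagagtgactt
TATAAA was in 34.8% of the 23 windows of striated genes and in 13.6% of all windows. It began 32 bases before the start in Myh1, where a TATA box is commonly found, and 96 bases before it in Myh8. The E-box, CANNTG on both strands, was in 87.0% of the striated windows and 72.3% of all windows. CATTCC on either strand, the MCAT sequence bound by TEAD factors, was in 6 of the 12 smooth muscle windows, 26.1% of the striated windows and 14.7% of all windows.

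Among the light chains and troponins of striated muscle, Tnni2 was called with differentiation and Mylpf with cabozantinib. Tnni2, fast troponin I, had log2 signals of -0.62 and -2.003 in undifferentiated, 0.79 and 1.15 in differentiated, and -0.14 and 0.42 in cabozantinib osteoblasts. It rose 4.87-fold with differentiation (log2 fold change 2.28 ± 0.59 SE, limma adjusted p = 0.0376), a call that was lost with quantile normalization (adjusted p = 0.0749) and without undifferentiated array 2 (0.0711) or differentiated array 2 (0.301), and the cabozantinib arrays lay between the other groups. Mylpf, the regulatory light chain of fast fibres, had -4.32 and -4.06, then -3.80 and -3.45, and was not well above background on either cabozantinib array. Mylpf fell with cabozantinib at least 3.61-fold against differentiated osteoblasts (adjusted p = 0.0475) and at least 2.43-fold against undifferentiated osteoblasts (adjusted p = 0.0206). With normexp the log2 fold changes of Mylpf were -1.06 and -1.07, under these bounds and without a call (adjusted p = 0.99997 and 0.597).

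The troponin genes Tnnc2, Tnnt1 and Tnnt3 and the light chains Myl1 and Myl4 were not called in any comparison. Myl1, an essential light chain of fast fibres, had -4.43 and -4.29, then -3.72 and -2.06, then -3.09 and -2.90, with 1 of the 2 undifferentiated arrays well above background. It passed as higher by the criterion of 2-fold and an unadjusted p under 0.05 with differentiation (log2 fold change 1.47, limma adjusted p = 0.151) and between cabozantinib and undifferentiated osteoblasts (1.36, adjusted p = 0.125). Mb, myoglobin, was well above background on 3 arrays and on no cabozantinib array, and Ttn, the giant sarcomeric protein titin, was well above background on 3 arrays at 1 of its 4 probes and on no cabozantinib array. Several defining genes of striated muscle were at background. Des, the intermediate filament desmin, Actn2, the α-actinin of the Z-disc, and Tnni1, slow troponin I, were not well above background on any array, and Ckm, Tnnc1 and Tnnt2 were so on 1 array each.

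**Figure D4:**
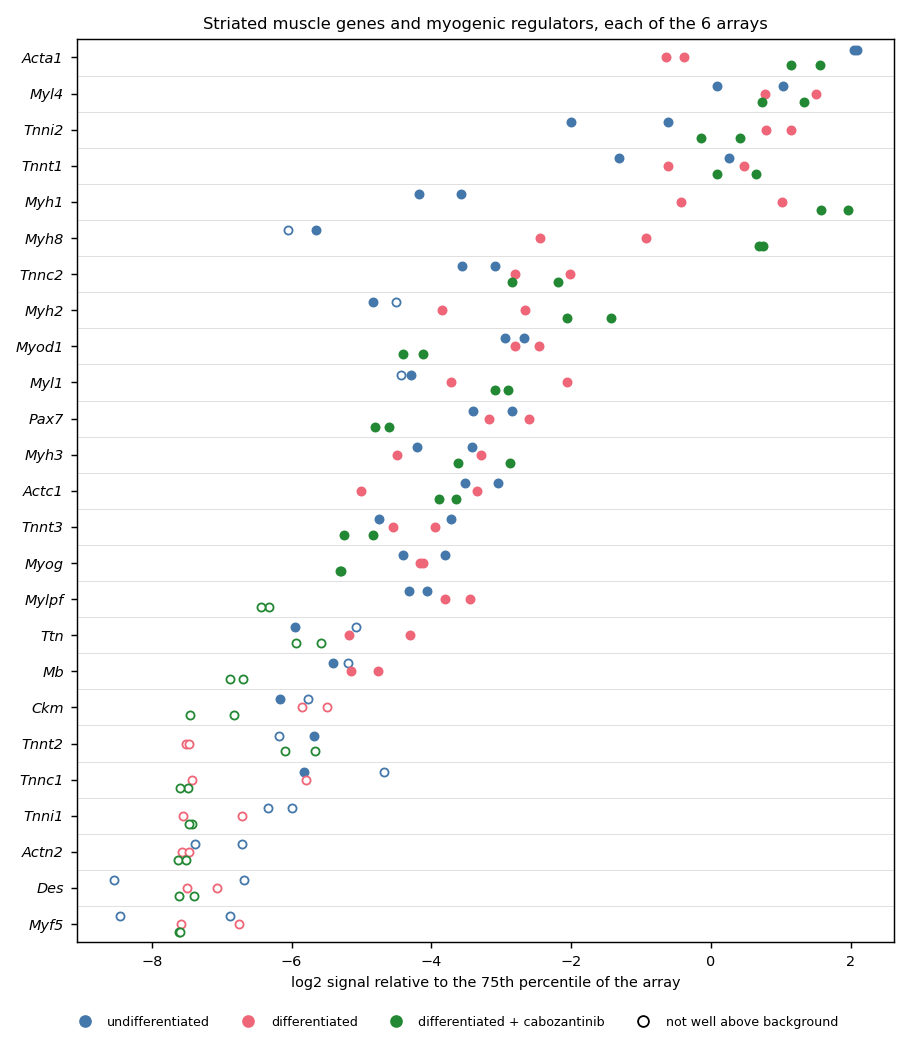
Log2 signal relative to the 75th percentile of the array (horizontal axis) for the 21 striated muscle genes and the 4 regulators, with a point for each of the 6 arrays colored by group and open points where the probe was not well above background. Myh1 and Myh8 span the widest range between groups, and the genes below Mb have open points on at least 5 arrays.

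The myogenic regulators were dim and overlapped between undifferentiated and differentiated osteoblasts. Pax7, the factor of muscle stem cells, had log2 signals of -2.85 and -3.41 in undifferentiated, -3.17 and -2.60 in differentiated, and -4.81 and -4.61 in cabozantinib osteoblasts. Myod1, which commits cells to muscle, had -2.67 and -2.95, then -2.80 and -2.46, then -4.41 and -4.12. Myog, which drives the terminal step, had -3.81 and -4.41, then -4.11 and -4.16, then -5.29 and -5.31. For all 3 the cabozantinib arrays lay below the other 4, and 44.1% of all genes lay lower on both cabozantinib arrays than on both differentiated arrays.

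The log2 fold changes of the regulators with cabozantinib were -1.82 ± 0.51 SE for Pax7 (limma adjusted p = 0.0745), -1.64 ± 0.49 for Myod1 (adjusted p = 0.0851) and -1.16 ± 0.49 for Myog (adjusted p = 0.191). None passed, and none of the 3 was called with differentiation, where none had an unadjusted p under 0.05. Dim genes as a whole were lower on the cabozantinib arrays: the median log2 fold change of the 2640 genes with a mean signal between -4 and -3, where Pax7 and Myod1 lie, was -0.80, and that of the 2823 genes between -5 and -4, where Myog lies, was -1.06. Myf5 was not well above background on any array.

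Read against genes of like signal, 12 of the 13 smooth muscle genes, 11 of the 15 striated genes and none of the 3 regulators had a log2 fold change with cabozantinib above the median of their signal bin. The median distance from the bin was 0.95 for the smooth muscle genes, 0.47 for the striated genes and -0.83 for the regulators. Among genes with a mean signal over 6, which hold Acta2, Tagln and Myl9, the median of all 634 genes was -0.15.

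**Figure D5:**
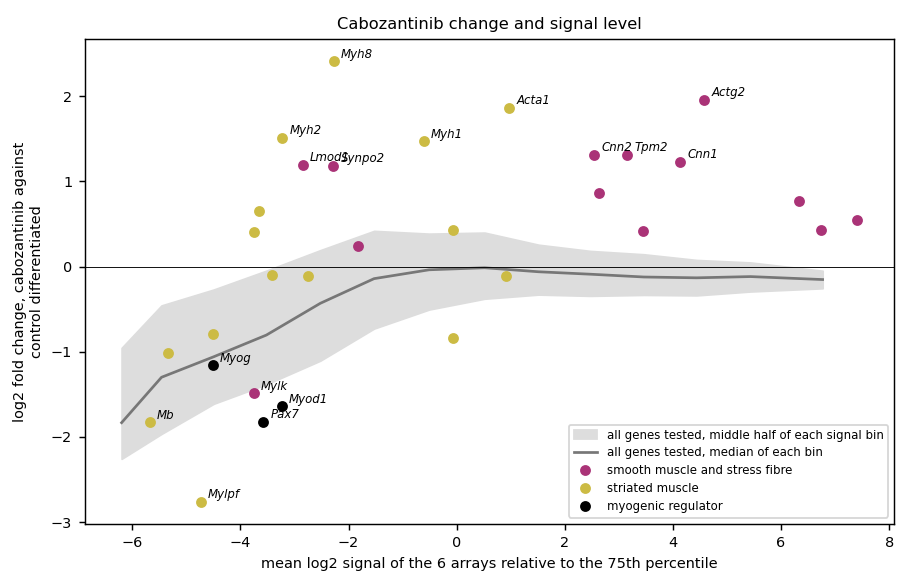
Log2 fold change between cabozantinib and control differentiated osteoblasts (vertical axis) against the mean log2 signal over the 6 arrays (horizontal axis), for the 31 muscle genes as points by kind, with the median of all 23082 genes tested in bins of signal as a line and their middle 50% shaded. The line falls from near 0 to -1.83 in the dimmest bin. Myh8 lies highest and Mylpf lowest of the muscle genes.

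Other sarcomere genes were read from a list of 29 names, of which 17 were tested. Of all genes, 9.71% were called with differentiation and 2.67% with cabozantinib. With differentiation 1 rose, Myh4, and 2 fell, namely Trim63, a ubiquitin ligase of muscle atrophy, and Actn3, the α-actinin of fast fibres. Trim63 was not well above background on the differentiated arrays. It was at least 1.89-fold lower there than in undifferentiated osteoblasts (limma adjusted p = 0.0270) and at least 2.29-fold lower than with cabozantinib (adjusted p = 0.0475), and it was the only gene of this list called with cabozantinib. Actn3 fell at least 2.77-fold with differentiation (adjusted p = 0.0430). Actn3 was not called when any 1 array was left out (adjusted p from 0.0680 to 0.534). Trim63 was not called with differentiation without undifferentiated array 2 or either differentiated array (0.0594 to 0.22), nor with cabozantinib without any of the 4 arrays compared (0.166 to 0.613). With normexp the log2 fold changes were -0.63 with differentiation and 0.25 with cabozantinib for Trim63 and -0.74 with differentiation for Actn3, all under their bounds and without a call (adjusted p from 0.972 to 0.99998). Ldb3, a Z-disc protein, had -2.63 and -1.23, then -2.45 and -3.12, then -0.19 and -0.40, so that both cabozantinib arrays were highest, with a log2 fold change of 2.49 over differentiated osteoblasts that missed the threshold (adjusted p = 0.0532). A dimmer Ldb3 probe, listed under another transcript, had its lowest values on the cabozantinib arrays, with a log2 fold change of -0.59 (adjusted p = 0.633), so that the probes disagree.

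Of 10 tested genes for the coupling of excitation to contraction, 1 fell with differentiation, against 9.71% of all genes called, and none was called with cabozantinib, where 4 had an unadjusted p under 0.05, against 23.4% of all genes. The gene that fell was Chrna1, a subunit of the acetylcholine receptor of the muscle endplate, with -1.20 and -0.74, then -3.10 and -2.998, then -3.06 and -3.30 (limma adjusted p = 0.0259 with differentiation). The call was lost without undifferentiated array 2 (adjusted p = 0.0563) or either differentiated array (0.193 and 0.215). Of 8 tested genes of muscle metabolism, 2 rose and 1 fell with differentiation. Cox8b, a cytochrome c oxidase subunit found in muscle and in brown fat, rose by 6.79 on the log2 scale (adjusted p = 0.000320). Pygm, muscle glycogen phosphorylase, rose 3.70-fold (adjusted p = 0.0498), and Pgam2, muscle phosphoglycerate mutase, fell 14.3-fold (adjusted p = 0.00754). The call of Cox8b held under all 19 alternative settings of limma. That of Pygm was lost without any 1 array but undifferentiated array 1 (adjusted p from 0.0702 to 0.479), and that of Pgam2 without either undifferentiated array or differentiated array 1 (0.0607 to 0.0881). None of the 8 was called with cabozantinib, where 4 had an unadjusted p under 0.05, against the same shares of all genes.

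From a list of genes of the myoblast program, none of the 13 tested was called with cabozantinib, against 2.67% of all genes, and 2 had an unadjusted p under 0.05, against 23.4%. Chrdl2, a BMP antagonist of that list, could not be told from background in undifferentiated osteoblasts and rose at least 11.7-fold (limma adjusted p = 0.00113). With normexp its log2 fold change was 1.36 (adjusted p = 0.575), under that bound.

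Most regulators of serum response factor and of contraction were without a call, as were most of all genes. Srf itself had log2 signals of 2.33 and 1.81, then 1.38 and 2.07, then 1.47 and 1.75, with the cabozantinib arrays below the undifferentiated ones and the differentiated arrays overlapping both groups. Myocd, its smooth muscle coactivator, was well above background on 2 arrays and on neither cabozantinib array. Of all genes, 9.71% were called with differentiation and 2.67% with cabozantinib, where 23.4% had an unadjusted p under 0.05. Of the 14 genes tested in the list of serum response factor regulators, Tgfbr1, a receptor for TGFβ, rose 5.06-fold with differentiation (limma adjusted p = 0.0148) and Tead1, a TEAD factor, fell 4.70-fold (adjusted p = 0.0398), and none was called with cabozantinib, where 2 had an unadjusted p under 0.05. The call of Tgfbr1 was lost without either differentiated array (adjusted p = 0.102 and 0.132). That of Tead1 was lost without undifferentiated array 2 (0.0990) or differentiated array 2 (0.523), and with quantile normalization (0.102). The ligand gene Tgfb1 had -3.80 and -3.92, then -4.66 and -4.32, then -3.40 and -3.48, with log2 fold changes of -0.63 with differentiation (adjusted p = 0.584) and 1.05 with cabozantinib (adjusted p = 0.233). A dimmer probe of Mrtfa passed with differentiation (log2 fold change -2.48, adjusted p = 0.0198), while its brightest had 0.33 (adjusted p = 0.906). Of 14 tested genes of contraction, 1 was called with differentiation, as higher, and 0 with cabozantinib. The highest log2 fold change of that list was that of Gucy1a1, 2.66 with differentiation and 3.75 between cabozantinib and undifferentiated osteoblasts.

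Of 20 other targets of serum response factor, 15 had a negative log2 fold change with differentiation, as did 42.6% of all genes, and 2 fell, against 4.45% of all genes called lower. With cabozantinib 6 had a negative one, as did 67.8% of all genes. None was called, against 2.67% of all genes, and 3 had an unadjusted p under 0.05, against 23.4%. The 2 that fell were Itga5, the fibronectin receptor subunit, and Ankrd1, a stretch-responsive cofactor. Itga5 had -0.73 and -0.87, then -4.10 and -4.14, then -2.53 and -2.60, and fell 9.98-fold with differentiation (limma adjusted p = 0.00272). Ankrd1 fell 6.19-fold (adjusted p = 0.00972), a call lost without undifferentiated array 2 (0.0568) or differentiated array 1 (0.0998). The median log2 fold change of these 20 genes was -0.64 with differentiation and 0.24 with cabozantinib.

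Of 16 genes of the non-muscle actin and myosin machinery, none was called by limma in either comparison at its brightest probe, against 9.71% and 2.67% of all genes with differentiation and with cabozantinib, and 3 and 0 had an unadjusted p under 0.05, against 20.2% and 23.4%. The cytoplasmic actins Actb and Actg1 had log2 fold changes of -1.11 (adjusted p = 0.335) and 0.19 (adjusted p = 0.953) with differentiation and of 0.25 (adjusted p = 0.907) and -0.14 (adjusted p = 0.954) with cabozantinib. The 5 probes of Actg1 disagreed, since a pair of dimmer ones had log2 fold changes of -3.77 and -4.62 with differentiation (adjusted p = 0.0107 and 0.0108).

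Compared with undifferentiated osteoblasts, cabozantinib osteoblasts had 13.4% of all genes called, 4.67% higher and 8.7% lower, and 5 of the 31 muscle genes, with Myh8, Myh1, Myh2 and Synpo2 higher and Mylpf lower. With quantile normalization Mylpf was not called (adjusted p = 0.114), and without either cabozantinib array neither Mylpf nor Synpo2 was. By the criterion of 2-fold and an unadjusted p under 0.05, 7 of the 31 genes passed as higher and 7 as lower, against 8.11% and 23.4% of all genes. On both cabozantinib arrays 9 of the 31 were above both undifferentiated arrays and 12 below both, against 19.7% and 43.6% of all genes. The median log2 fold change was 0.20 for the smooth muscle genes, 0.57 for the striated genes and -0.35 for all genes. The first 2 medians turned to -0.59 and -0.31 without undifferentiated array 2, where that of all genes was -0.69. They were 0.99 and 1.39 without undifferentiated array 1, where that of all genes was -0.17. With no replicate block 11 of the 31 genes were called, and 5572 of all genes in place of 3087. Acta1, Cnn2, Tpm2 and Actg2 passed no test here at their brightest probes.

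Markers of other cell types moved with differentiation. The osteoblast markers, led by Col1a1, summed to 845 and 377 times the 75th percentile signal in undifferentiated, 557 and 851 in differentiated, and 658 and 807 in cabozantinib osteoblasts, and overlapped between undifferentiated and differentiated osteoblasts. Of the 12, 5 were called higher with differentiation and 1 lower, against 5.26% and 4.45% of all genes. Bglap2, osteocalcin, rose 33.4-fold (limma adjusted p = 0.000481), and Spp1, osteopontin, fell 12.7-fold (adjusted p = 0.0319), a call lost without undifferentiated array 2 (0.228) and with quantile normalization (0.150). The 8 macrophage markers tested, led by Ctss, summed to 75.9 and 52.5, then 422 and 594, then 389 and 503, with 5 of 8 called higher with differentiation, while the log2 fold change of Lyz2, lysozyme, was -1.28 (adjusted p = 0.548). The 7 adipocyte markers, led by Lpl, summed to 5.05 and 5.64, then 66.1 and 92.2, then 56.0 and 56.2, with 5 of 7 called higher, while the log2 fold change of Plin1, perilipin, was -1.52 (adjusted p = 0.355). With cabozantinib Cfd, the adipocyte protease adipsin, fell 12.7-fold (limma adjusted p = 0.0475), a call lost without differentiated array 2 (0.148) or cabozantinib array 1 (0.168) and with quantile normalization (0.177). Their part in the muscle gene results was not tested.

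The 6 pericyte markers tested, led by Anpep, summed to 84.1 and 55.5, then 112 and 155, then 90.2 and 119, and Rgs5 and Kcnj8 were not well above background on any array. The 4 endothelial markers tested, led by Kdr, summed to 1.41 and 0.943, then 1.33 and 1.62, then 0.853 and 1.01, and Tek and Tie1 were not well above background on any array. The endothelial cadherin gene Cdh5 rose 4.53-fold with differentiation (limma adjusted p = 0.0229), a call lost without either differentiated array (0.284 and 0.0839), and fell 5.29-fold with cabozantinib (adjusted p = 0.0475). The pericyte channel subunit gene Abcc9 fell at least 1.56-fold with cabozantinib (adjusted p = 0.0475). Neither call with cabozantinib was made without any 1 of the 4 arrays compared or with quantile normalization. The part of these markers in the muscle gene results was not tested. The 13 smooth muscle genes, led by Acta2, summed to 655 and 310, then 244 and 486, then 491 and 617, and the 15 striated genes to 8.87 and 6.35, then 6.21 and 10.9, then 11.9 and 14.2. The sums set probes of different genes side by side and are a description only. The summed levels of both muscle lists on the differentiated arrays overlapped those on the undifferentiated arrays, and both cabozantinib arrays were above both differentiated arrays. For the smooth muscle genes that gap was narrow, 491 against 486. Of the 15 striated genes, 7 had a positive and 8 a negative log2 fold change with cabozantinib.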

How the data were processed

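Cy3-labeled RNA of 6 samples was hybridized to 1-color Agilent mouse arrays. The scanner files give intensity values in arbitrary units, which the authors' Feature Extraction 11.0.1.1 software had background-subtracted, per the file headers. The deposited table of the authors holds log2 values of 30439 probes, nearly equal in distribution between arrays, by steps not given in the sources used here. Probes were named through RefSeq accessions (69.1% of probes). A probe without such a name was counted under its own array entry, so that all genes tested include unnamed entries.

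Control and outlier spots were removed, log2 signals were averaged over the spots of a probe, and values were set relative to the 75th percentile of their array. The 27229 probes that the scanner called well above background on 2 or more arrays entered the fit. Where a group was not above background, folds are bounds. Groups were compared with limma 3.58.1 (R 4.3.3) on all 6 arrays, with condition and replicate number as terms, since the study names a paired test. P values were adjusted over all probes by the Benjamini-Hochberg method, and a gene was read at its brightest probe. On simulated data the fit was tested before use. Figures were drawn with matplotlib 3.10.9.

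The members and lists were chosen with earlier results of these data known. All 39 genes were accounted for, and other lists were named by at most their 3 highest and 3 lowest genes plus 6 fixed genes. Alternatives were other normalizations, filters, probe choices, replicate terms and each array left out. Some items of these lists are not reported here.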

Additional observations from a re-analysis of the deposited data

How the results depend on the processing

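Of 64 fold changes named in the text at the brightest probe, 56 kept their direction under every alternative of limma, and over all of these 946 values kept direction and side of the threshold, 148 lost a call, 81 gained one and 20 turned. With the mean of the probes of a gene, the log2 fold change of Synpo2 between cabozantinib and undifferentiated osteoblasts became -0.19, that of Smtn with differentiation -0.999, and those of Actg1 -1.88 with differentiation and 0.59 with cabozantinib. At the probe with the largest change Smtn had -2.13, and Actg1 -4.62 and 2.26. Smtn was at -0.0357 with quantile normalization, with or without a replicate block, and at -0.0387 in the authors' values. With an array left out, the log2 fold changes with differentiation ran from -0.67 to 0.94 for Smtn, -0.72 to 1.103 for Actg1, -3.06 to 0.50 for Lyz2 and -3.17 to 0.13 for Plin1, and those with cabozantinib from -0.49 to 0.99 for Actb, -0.71 to 0.42 for Actg1 and -0.23 to 1.06 for Smtn.

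With differentiation, 5 of the 31 muscle genes tested were called. The number was 2 with a normexp correction on the median signals, and 0 by the methods' t-test, paired or unpaired, where 2 and 5 genes passed the criterion of the study in place of 10 (1290 and 3385 of all genes had an unadjusted p under 0.05). Without differentiated array 1 fewer genes were called and fewer were past 2-fold, and without undifferentiated array 1 more were. The numbers of all genes moved the same way. The median of the smooth muscle genes, -0.20, ran from -1.14 to 0.43 without undifferentiated array 2 or 1, so that it has no stable sign. That of all genes ran from -0.25 to 0.49 in the same settings.

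Between cabozantinib and differentiated osteoblasts, the 2 calls became 0 with quantile normalization (4025 of all genes had an unadjusted p under 0.05), in the authors' values, with no filter on dim probes, with probes well above background on all 6 arrays, with normexp, with the 75th percentile taken over spots, with quantile normalization and no replicate block, and by both t-tests. They became 12 with only the 4 arrays compared, where 5546 of all genes were called in place of 616. The number fell when an array of either compared group was left out and rose without either undifferentiated array. The number of all genes called moved the same way. The 15 genes past 2-fold became 5 with normexp, 4 and 8 by the paired and unpaired t-tests, and 3 to 16 with an array left out. The median ran from 0.25 to 1.44 for the smooth muscle genes and from -0.47 to 0.64 for the striated genes without differentiated array 1 or 2. That of all genes ran from -0.56 to -0.19 in the same settings. Quantile normalization moved the median of all genes from -0.29 to -0.08.

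Between cabozantinib and undifferentiated osteoblasts, the 5 calls became 3 with no filter, 2 with probes well above background on all 6 arrays, 2 with normexp and 0 by both t-tests, and ran from 2 to 12 with an array left out. The 14 genes past 2-fold became 5 with normexp, 3 by the paired t-test, and 6 to 21 with an array left out. The medians of the smooth and striated genes, 0.20 and 0.57, became -0.59 and -0.31 without undifferentiated array 2, where that of all genes went from -0.35 to -0.69. Of all genes, 2242, 616 and 3087 were called in the 3 comparisons in the order given, against 673, 0 and 464 with normexp, and the last count was 1312 with quantile normalization.

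The replicate numbers did not pair the samples across all 3 groups. Deviations of same-numbered arrays correlated at -0.51 between undifferentiated and differentiated and at -0.53 between undifferentiated and cabozantinib arrays. Between differentiated and cabozantinib arrays they went together, at 0.26. The main fit kept the numbers as a block, since the study names a paired test. With no replicate block 7, 8 and 11 muscle genes were called with differentiation, between cabozantinib and differentiated, and between cabozantinib and undifferentiated osteoblasts. With a replicate block in which the undifferentiated numbers were exchanged the counts were 10, 17 and 18. Of all genes, 2948 and 5572 were called in the last pair of comparisons with no replicate block, and 6029, 7062 and 10304 in the 3 with the exchanged block. Normexp on the median signals, the percentile over spots, the exchanged block and the last quantile setting were chosen after seeing the data, and normexp on mean signals was not run, since mean signals were not used here. Scan time could not be fitted as a block. The causes of these changes were not tested. Signals near background, as for Mb, Ttn and Mylpf, and the 2 arrays per group limit the precision. With normexp the calls of Tnni2, Chrna1, Pygm, Tead1, Itga5, Ankrd1, Spp1, Cdh5, Abcc9, Cfd and Synpo2 were also lost, and with no filter on dim probes those of Tnni2, Trim63, Actn3, Chrna1, Pygm, Tead1, Spp1, Synpo2 and Mylpf, of Cdh5 in both comparisons, and of Myh8, Abcc9 and Cfd with cabozantinib.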
